A study of Mus musculus with 8 samples.

Results

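Vascular endothelial identity genes encode proteins by which the cells lining blood vessels are recognised. Their transcripts were followed in 8 mouse tumours of 4T1, a mammary carcinoma cell line, by sequencing total RNA of whole tumours. The members are 10 genes chosen by symbol, Pecam1, Cdh5, Tie1, Emcn, Esam, Cldn5, Egfl7, Plvap, Robo4 and Vwf, of 32098 gene rows in the expression table, and all 10 were found. In 4 tumours, RI 1, 2, 4 and 5, the treatment was radiation together with an immune checkpoint inhibitor, and in 4 tumours, ICI 1, 2, 3 and 4, it was the inhibitor alone. All 8 tumours have the genotype WT, and neither group is untreated. The labels do not name the inhibitor, give a radiation dose or place a sampled tumour inside or outside the field of radiation. Nothing states that each tumour came from its own animal, so the p-values below measure the spread between these samples, and the study's design text gives 3 replicates a group where 4 are labelled.

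Endothelial cells form the inner layer of every blood vessel and hold it closed through junctions in which VE-cadherin (Cdh5), claudin-5 (Cldn5), ESAM (Esam) and CD31 (Pecam1) bind the same proteins on neighbouring cells. Sprouting and maturation of vessels depend on receptors on their surface, among them TIE1, the partner of the angiopoietin receptor TIE2, and ROBO4, and on secreted factors such as EGFL7. In tumours, new vessels are often irregular and leaky, and endothelial transcripts in bulk RNA are widely read as a measure of vessel content. In RNA of a whole tumour, fewer endothelial cells and less of a transcript in each cell cannot be told apart.

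The members lie on 8 chromosomes of GRCm38, and Robo4 and Esam, both on chromosome 9, are separated by 112963 bases. Egfl7 on chromosome 2 (26580014 to 26593120, plus strand) shares 64 exon bases with Agpat2 on the opposite strand and 264 exon bases with Gm20532 on its own, and since the strand setting of the counting is not given in the sources used here, fragments there cannot be assigned. The miR-126a hairpin shares 73 bases on the same strand with exons that GENCODE M21 lists for Egfl7. Whether the hairpin lies in an exon or in an intron of the coding mRNA was not tested. The mature 3p form of miR-126a is shown as the product of the Egfl7 locus that the expression table does not list. Its seed (bases 2 to 8) is in capitals. The sequence is from RefSeq on GRCm38.p6, chromosome 2, 26591402 to 26591423, plus strand.
mmu-miR-126a-3p: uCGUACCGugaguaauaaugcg

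Promoter windows of 250 bases before the RefSeq start (GRCm38.p6) were matched for 5 of the 10 members. Those of Emcn and Cldn5 are shown because ICI 1 stood 2.94-fold above the median of the other ICI tumours for Emcn and 35.1-fold for Cldn5. Emcn has 4 copies of the ETS core GGAA and Cldn5 has 0, counted on both strands (in capitals, as GGAA and, where the core lies on the other strand, as TTCC). ETS factors such as ERG and FLI1 are known as activators of endothelial genes. The Emcn stretch leaves out the last 11 bases of its window, which lie within the GENCODE gene model.
Emcn, chr3:137340828-137341066, plus strand: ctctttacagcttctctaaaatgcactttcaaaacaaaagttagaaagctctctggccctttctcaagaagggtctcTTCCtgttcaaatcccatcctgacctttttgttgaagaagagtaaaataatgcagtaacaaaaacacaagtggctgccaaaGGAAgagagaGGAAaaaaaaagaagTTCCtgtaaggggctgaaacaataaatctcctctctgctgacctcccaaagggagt
Cldn5, chr16:18776597-18776846, plus strand: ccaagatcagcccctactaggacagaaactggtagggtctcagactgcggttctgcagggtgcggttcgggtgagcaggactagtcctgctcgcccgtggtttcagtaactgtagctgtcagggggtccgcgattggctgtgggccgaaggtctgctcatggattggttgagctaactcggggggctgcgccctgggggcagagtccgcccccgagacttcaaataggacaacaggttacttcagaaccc
GGAA on either strand is in 93.5% of 32851 such windows, with a median of 3 copies, so its presence before Emcn, Tie1 (7 copies) and Robo4 (3 copies) is common. Also searched on both strands were the long ETS form CCGGAAGT, which contains the core and is in 2.88% of the windows, the SOX core ACAAT (27.7%), the GATA core GATAA (22.6%) and the TATA box TATAAA (12.4%). The Cldn5 window holds none of these 5 motifs, while the SOX core has 1 copy before Emcn and 2 copies before Robo4. Egfl7, for which ICI 1 stood 11.01-fold above the other ICI tumours' median, has 3 windows. They hold 5, 3 and 1 copies of the ETS core, and 1 copy of the GATA core in the second. These matches describe letters and say nothing of binding, and a link to the levels in ICI 1 was not tested.

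Several libraries stand apart, and the members' values touch each of them. Markers of lung epithelium were high in 2 of the ICI tumours. Summed over 10 genes of alveolar epithelium, the level was 1.05 to 3.53 FPKM (fragments scaled for transcript length and for the total of the library) in the 4 RI tumours, against 3708 FPKM in ICI 1, 909.6 in ICI 4, 2.52 in ICI 2 and 2.64 in ICI 3. All 10 of these genes reached 1 FPKM in ICI 1 and in ICI 4, against 0 to 2 of them in each RI tumour and 1 in each of ICI 2 and ICI 3. Surfactant protein C (Sftpc) was listed at 2887 FPKM in ICI 1 and 707.3 in ICI 4 and was at most 0.204 FPKM in the other 6 tumours, and surfactant protein B (Sftpb) was at 0 in all 4 RI tumours. Of 6 airway genes the sum was 0.868 to 3.32 FPKM in RI tumours, 5392 FPKM in ICI 1, 149.1 in ICI 4, and 1.14 and 1.74 in ICI 2 and ICI 3. A list of 10 genes of lung capillary endothelium summed to 41.2 to 63.0 FPKM in RI tumours, against 218.2 FPKM in ICI 1 and 32.3 to 36.5 in the other ICI tumours, ICI 4 among them. Outside ICI 1 most of this sum was Kitl and Apln. Kitl was at 18.4 to 25.9 FPKM and Apln at 11.3 to 21.6 FPKM in RI tumours, against 10.8 and 16.1 in ICI 4. The sum therefore does not rank those tumours by lung capillary content. RI 2 stood apart in adipocyte markers, whose 9 genes summed to 383.6 FPKM there, against 9.55 to 23.4 FPKM in the other RI tumours and 7.21 to 21.2 in ICI tumours. In RI 4 the summed FPKM of all genes was 717092, against 358243 to 494399 in the other 7 libraries. The part of these tissues and libraries in the endothelial values was not tested, and the members' differences are given with and without ICI 1 and ICI 4.

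**Figure D1:**
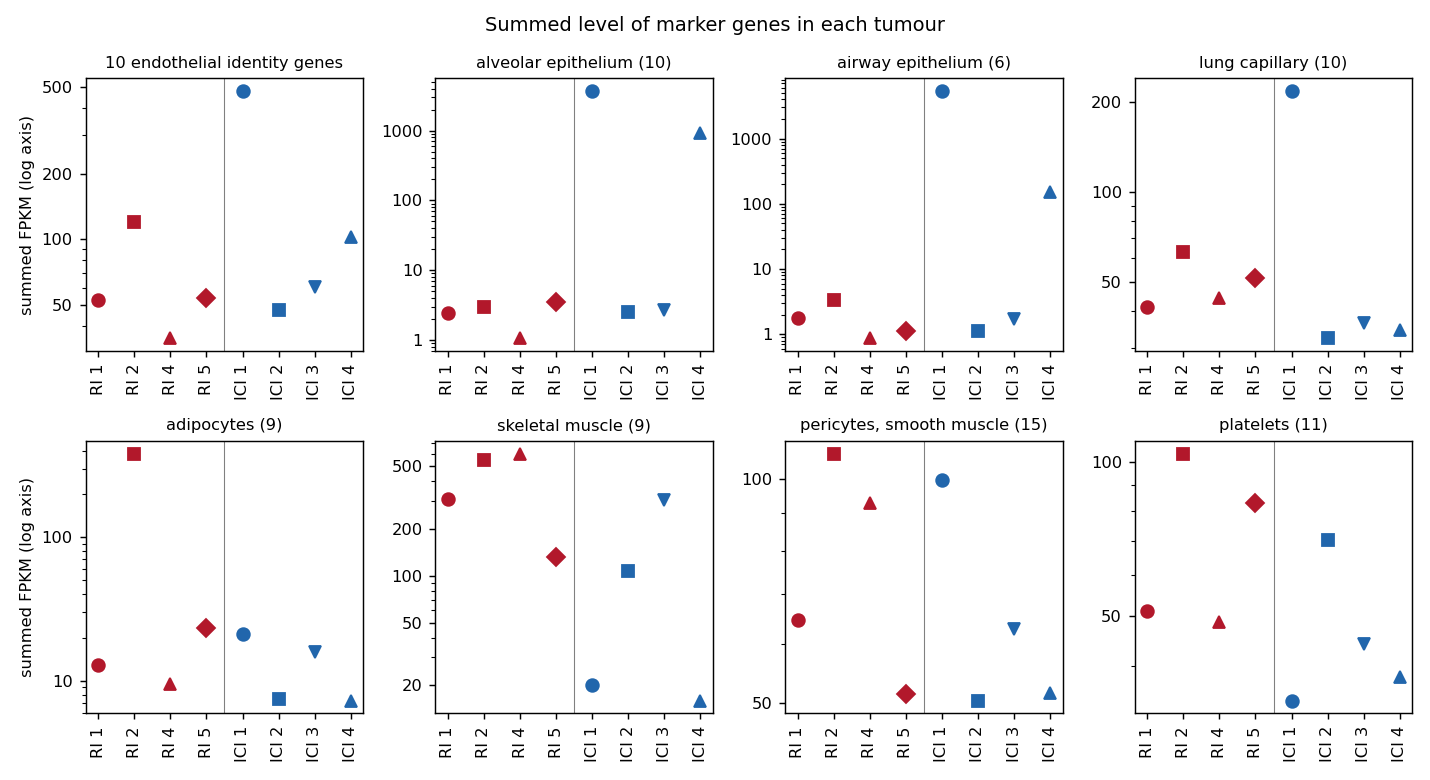
Summed FPKM (vertical log axes) of the 10 endothelial identity genes and of 7 marker lists in each tumour (points), RI on the left of each panel and ICI on the right. The endothelial sum is 478.8 FPKM in ICI 1, 120.1 in RI 2 and 102.5 in ICI 4, and alveolar and airway markers are high in ICI 1 and ICI 4 while adipocyte markers are high in RI 2.

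Every member was read in every tumour. Totals recovered from the FPKM steps were 27010400 to 42618400 fragments a library, and the members had between 121 fragments (Cldn5 in RI 4) and 10150 fragments (Egfl7 in ICI 1). Epithelial keratin of the tumour cells (Krt8) was at 411.5 to 791.7 FPKM in RI tumours and 467.7 to 1064 in ICI tumours. By the median over 8 tumours the level per length was 19.3 FPKM for Plvap, 8.91 for Cdh5, 7.03 for Egfl7, 5.96 for Pecam1, 5.66 for Cldn5, 4.83 for Esam, 3.08 for Tie1, 1.89 for Robo4, 1.75 for Emcn and 0.461 for Vwf. Neighbours in this order kept it in all 8 tumours for Cldn5 over Esam and for Esam over Tie1. Plvap over Cdh5 held in 7 tumours, as did each step from Tie1 down to Vwf, whereas Cdh5 over Egfl7 held in 6, Egfl7 over Pecam1 in 5 and Pecam1 over Cldn5 in 4, so the middle of the order is not settled beyond the spread between tumours. Pecam1 exceeded Cldn5 in 4 of 4 RI tumours and in 0 of 4 ICI tumours. The pair was picked with the values in view. It is among the 14 of 45 pairs of members (31.1%) whose FPKM ratio did not overlap between the groups.

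The junction genes were all lower on average in RI tumours, by differences that did not pass the test. VE-cadherin (Cdh5), the adhesion molecule of endothelial adherens junctions, was at 6.62, 15.8, 6.95 and 8.87 FPKM in RI 1, 2, 4 and 5, and at 45.6, 6.25, 8.95 and 11.8 FPKM in ICI 1 to 4. RI 2 and ICI 1 were the high tumours, and the other 6 overlapped between the groups. Cdh5 averaged 9.55 ± 4.25 FPKM in RI tumours and 18.1 ± 18.4 FPKM in ICI tumours (SD, n = 4 each), a difference of -0.52 ± 0.55 (SE) in log2(FPKM + 1), with an adjusted p of 0.520 by limma with Benjamini-Hochberg adjustment.

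CD31 (Pecam1), which holds endothelial cells together and is also carried by platelets and some leukocytes, was at 8.54, 14.6, 5.30 and 5.63 FPKM in RI 1, 2, 4 and 5, against 28.3, 4.33, 5.36 and 6.29 FPKM in ICI 1 to 4. ICI 2, 3 and 4 lay among or below the RI tumours, and ICI 1 lay above them all. The difference was -0.06 ± 0.54 (SE), the smallest of the 9 tested members, with an adjusted p of 0.955 by limma and a 95% confidence interval of -1.30 to 1.19.

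Claudin-5 (Cldn5), a sealing protein of endothelial tight junctions, had the widest range. It was at 3.82, 10.1, 2.35 and 4.49 FPKM in RI 1, 2, 4 and 5, and at 199.8, 5.69, 5.62 and 21.3 FPKM in ICI 1 to 4. ICI 1 alone made up 86.0% of the summed ICI values, and RI 2 still exceeded ICI 2 and ICI 3. Means were 5.19 ± 3.39 FPKM in RI tumours and 58.1 ± 94.8 FPKM in ICI tumours (SD, n = 4 each), with a log2 difference of -1.91 ± 1.03 (SE) and an adjusted p of 0.217 by limma.

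ESAM (Esam), an immunoglobulin-type adhesion molecule of endothelial tight junctions and platelets, was at 3.71, 9.02, 2.12 and 3.73 FPKM in RI 1, 2, 4 and 5, against 32.0, 4.23, 5.43 and 11.5 FPKM in ICI 1 to 4. All ICI tumours lay above 3 of the RI tumours, with RI 2 between ICI 3 and ICI 4. Its difference was -1.08 ± 0.59 (SE), with an adjusted p of 0.226 by limma.

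**Figure D2:**
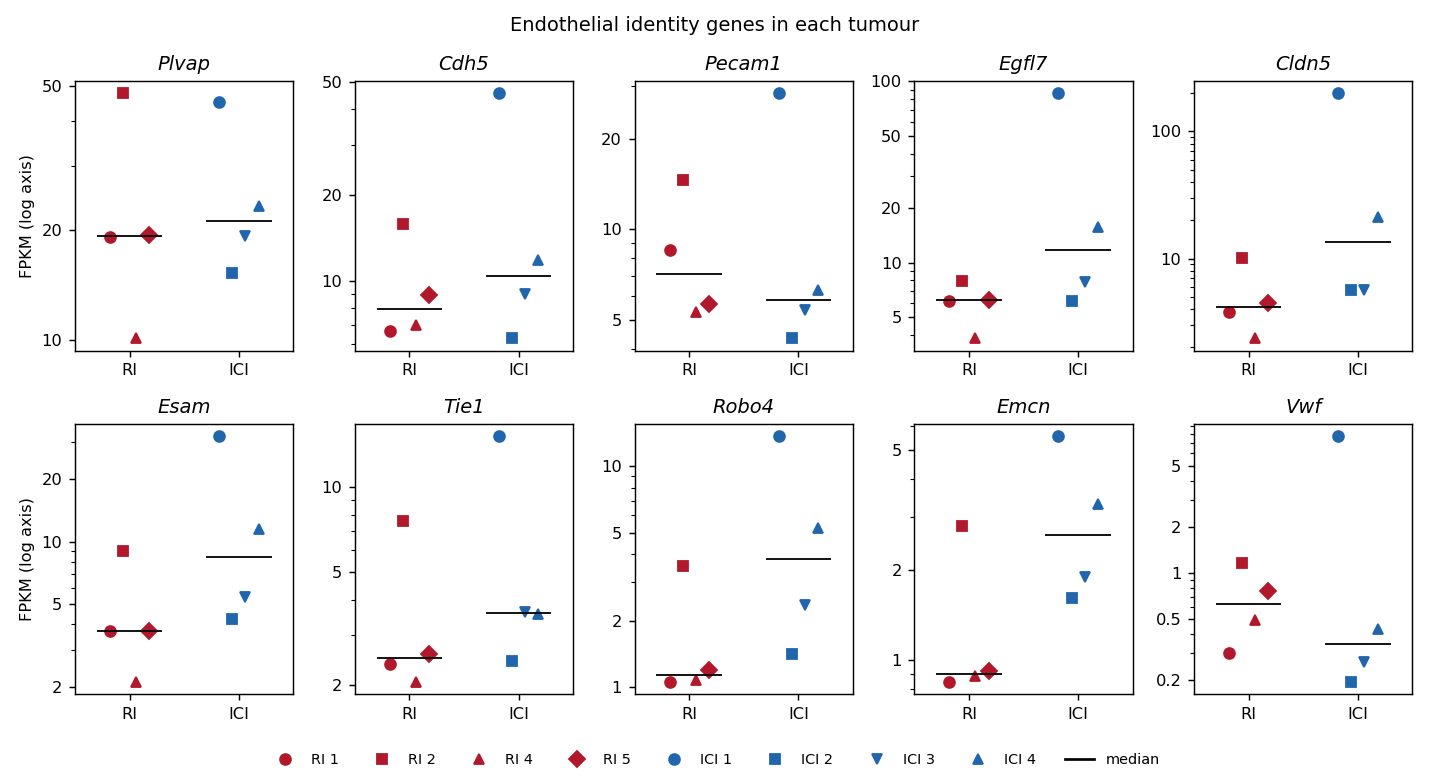
FPKM (log axis, a separate range in each panel) of the 10 members in each tumour, RI on the left and ICI on the right, with a bar at the median of each group. In every panel ICI 1 is the highest ICI tumour and RI 2 the highest RI tumour, and the groups overlap.

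Among surface receptors and glycoproteins, the differences of Plvap and Tie1 were small and those of Robo4 and Emcn larger, and none passed the test. PLVAP, which builds the diaphragms of fenestrae and caveolae, is the most abundant member, at 19.2, 47.6, 10.1 and 19.4 FPKM in RI 1, 2, 4 and 5 and at 45.0, 15.3, 19.2 and 23.3 FPKM in ICI 1 to 4. It was the one member whose highest tumour was an RI tumour. Means of 24.1 ± 16.3 FPKM in RI tumours and 25.7 ± 13.3 FPKM in ICI tumours (SD, n = 4 each) differed by -0.18 ± 0.46 (SE) in log2(FPKM + 1), with an adjusted p of 0.803 by limma.

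TIE1, an orphan receptor kinase that pairs with TIE2, was at 2.38, 7.63, 2.05 and 2.58 FPKM in RI 1, 2, 4 and 5, and at 15.1, 2.42, 3.61 and 3.57 FPKM in ICI 1 to 4. Outside RI 2 and ICI 1 all values lay within 2.05 to 3.61 FPKM. The log2 difference was -0.47 ± 0.52 (SE), with an adjusted p of 0.545 by limma.

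ROBO4, an endothelial member of the roundabout receptors known to stabilise vessels, was at 1.06, 3.55, 1.08 and 1.20 FPKM in RI 1, 2, 4 and 5, against 13.7, 1.42, 2.37 and 5.26 FPKM in ICI 1 to 4. Endomucin (Emcn), a sialomucin of capillary and venous endothelium, was at 0.849, 2.79, 0.884 and 0.920 FPKM in RI tumours in the same order, against 5.56, 1.61, 1.89 and 3.31 FPKM in ICI tumours. For both genes 3 RI tumours lay close together below every ICI tumour, and RI 2 lay among the ICI tumours. Robo4 differed by -1.03 ± 0.54 (SE) and Emcn by -0.77 ± 0.34 (SE), with adjusted p of 0.204 and 0.135 by limma. Emcn was the only member with an unadjusted p under 0.05 in this fit, 0.0478 before and 0.135 after the adjustment by limma, and such a p was found for 35.9% of all genes tested.

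The secreted members were uneven within the ICI group, as Cldn5 was. EGFL7, an extracellular factor of endothelium, was at 6.12, 7.93, 3.81 and 6.25 FPKM in RI 1, 2, 4 and 5, and at 86.0, 6.11, 7.81 and 15.8 FPKM in ICI 1 to 4. ICI 2 lay within the RI range and ICI 1 stood 11.01-fold above the median of the other ICI tumours. The log2 difference was -1.34 ± 0.72 (SE), with an adjusted p of 0.213 by limma.

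Von Willebrand factor (Vwf), the clotting glycoprotein stored in endothelial granules and made also by megakaryocytes, was at 0.2996, 1.17, 0.491 and 0.768 FPKM in RI 1, 2, 4 and 5, against 7.74, 0.196, 0.261 and 0.432 FPKM in ICI 1 to 4. It reached 1 FPKM in 2 tumours and so did not pass the filter of at least 1 FPKM in at least 4 tumours. RI 2, 4 and 5 lay above ICI 2, 3 and 4, and ICI 1 lay above them all. The mean log2(FPKM + 1) differed by -0.34 with all tumours (two-sided exact permutation p = 0.971) and by 0.35 without ICI 1 (exact permutation p = 0.114), where 0.0286 is the smallest p that the design allows.

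Of the 9 members tested, 0 rose and 0 fell in RI tumours at an adjusted p under 0.05 by limma, whereas 17.7% of the 13439 genes tested passed, 11.1% higher and 6.60% lower in RI tumours. That split, 1486 genes higher and 887 lower, was 1500 and 1623 after median centring. With limma voom on recovered fragments 0 of the 9 passed as well, against 19.4% of all genes, and 1 had an unadjusted p under 0.05 in that fit, as in the one on FPKM. All 9 had a lower mean log2 value in RI tumours, where 48.9% of all genes did, and the median difference of the members was -0.77 against 0.01 for all genes. The groups overlapped in FPKM for all 10 members, while for 27.9% of all genes tested they did not. The confidence intervals are wide, so these data do not show that the members were equal between the groups.

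These directions rested in part on ICI 1. Without it, 0 of 9 members were called by limma against 20.0% of all genes, and 4 members were higher in RI tumours, Pecam1 by 0.50 log2 units, Plvap by 0.12, Cdh5 by 0.04 and Tie1 by 0.02. The other 5 stayed lower, with differences of -0.83 for Cldn5, -0.57 for Egfl7, -0.54 for Esam, -0.54 for Robo4 and -0.51 for Emcn. Without both ICI 1 and ICI 4 the same 4 were higher, Pecam1 by 0.61, Plvap by 0.26, Cdh5 by 0.24 and Tie1 by 0.09, and the other 5 differed by between -0.16 (Robo4) and -0.29 (Emcn). In that fit too 0 of 9 members were called by limma (adjusted p of 0.316 to 0.909), while 4.49% of all genes were. With so low a share over all genes, 0 of 9 says little about the members.

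**Figure D3:**
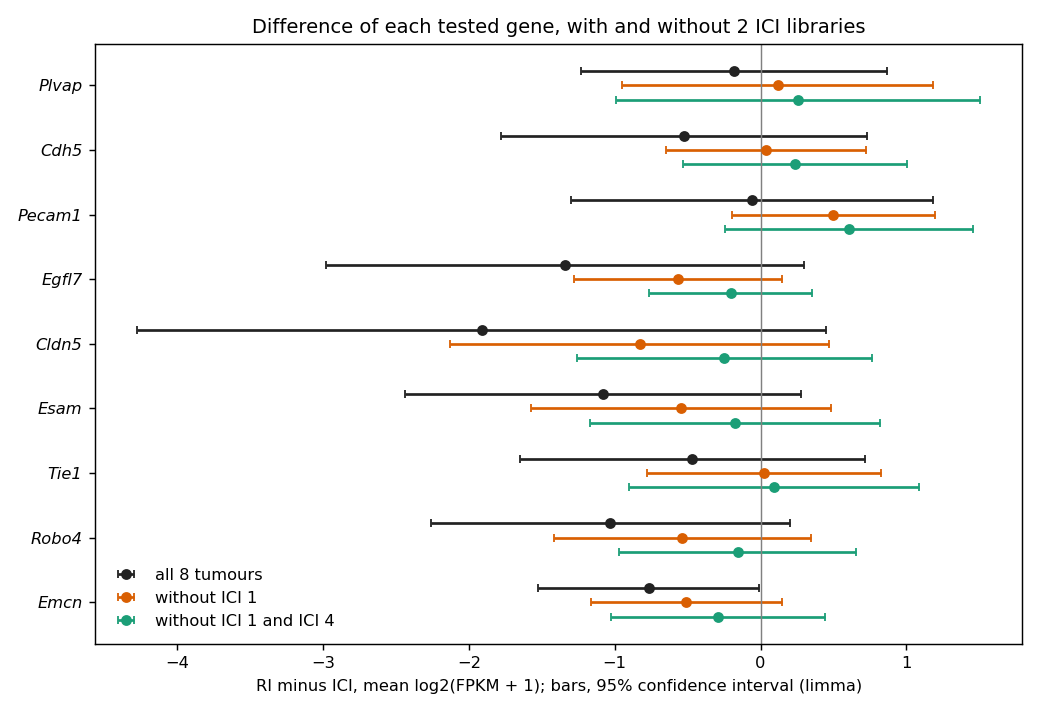
Difference RI minus ICI in mean log2(FPKM + 1) for the 9 members tested (horizontal axis), with 95% confidence intervals from limma as bars, for all 8 tumours, without ICI 1, and without ICI 1 and ICI 4. Points for Cldn5 move from -1.91 to -0.83 and -0.25 as the libraries are left out, and Pecam1 moves from -0.06 to 0.50 and 0.61.

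The members varied together from tumour to tumour. ICI 1 was the highest ICI tumour for 10 of 10 members (for 32.2% of all genes tested), and RI 2 the highest RI tumour for 10 of 10 (for 27.6% of all genes). ICI 4 was second in its group for 9 of 10 members. Summed over the 10 genes, the level was 52.6, 120.1, 35.1 and 53.8 FPKM in RI 1, 2, 4 and 5, and 478.8, 47.5, 60.5 and 102.5 FPKM in ICI 1 to 4. The 3 highest sums were thus in the tumours with lung epithelial or adipocyte transcripts, and the other 5 lay between 35.1 and 60.5 FPKM. ICI 1 exceeded the median of the other ICI tumours 35.1-fold for Cldn5, 29.6-fold for Vwf and 11.01-fold for Egfl7, but 2.94-fold for Emcn and 2.34-fold for Plvap. RI 2 exceeded the median of the other RI tumours more evenly, from 1.30-fold for Egfl7 to 3.30-fold for Robo4.

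After removal of group means, Pearson's r between the 36 pairs of tested members over 8 tumours ran from 0.742 (Egfl7 with Plvap) to 0.987 (Egfl7 with Cldn5), with a median of 0.932. Without ICI 1 the range was 0.580 to 0.966 and the median 0.868. These points share libraries, and RI 2 and ICI 1 are the highest of their groups for every member. Outside the members, and leaving out unnamed Gm and Rik gene models, the genes with the highest r to their mean pattern over 8 tumours were Rtl8b (0.995) and Rtl8a (0.991), near-identical copies whose fragments may be split arbitrarily, followed by Mier3, Oplah, S1pr1, Fam110d, Apoc1, Ushbp1, Gba2 and Nos3. S1pr1 is the sphingosine-1-phosphate receptor of endothelium and Nos3 the endothelial nitric oxide synthase. Without ICI 1 the list was led by Dgka (0.996) and Hspa12b (0.992), and Rtl8a, Rtl8b, Ushbp1 and Apoc1 were on both lists of 10. For 57 tested genes of the endothelial lists the median r was 0.83 over 8 tumours and 0.77 without ICI 1, against -0.03 and 0.18 for all genes.

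To compare the mix of endothelial transcripts apart from their amount, each member was set against Cdh5 in the same tumour, a ratio chosen after the values were seen. Relative to Cdh5, Esam was at 0.560, 0.573, 0.305 and 0.421 in RI 1, 2, 4 and 5, and at 0.704, 0.676, 0.607 and 0.978 in ICI 1 to 4. Robo4 stood at 0.160, 0.2256, 0.155 and 0.135 of Cdh5 in RI tumours, against 0.2996, 0.2266, 0.265 and 0.446 in ICI tumours. For these 2 of the 9 other members the groups did not overlap, though the nearest Robo4 ratios, RI 2 and ICI 2, were almost the same. Ratios to Cdh5 did not overlap for 1.99% of all genes tested. That share is no like background, since the members vary together with Cdh5 and most genes do not. Among FPKM ratios of the 45 pairs of members, 31.1% did not overlap. Esam and Robo4 with Cdh5 are among those pairs, so this share is no separate background either. For the other 7 members the ratios to Cdh5 overlapped between the groups. Vwf was at 0.045 to 0.087 of Cdh5 in RI tumours, above the 0.029 to 0.037 of ICI 2, 3 and 4 and under the 0.170 of ICI 1.

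With every tumour scaled to its own Cdh5, limma called 0 of the 8 other tested members (lowest adjusted p of 0.832) and 0.223% of all genes. In that fit 0 members had an unadjusted p under 0.05, against 4.61% of all genes. The fit took log2(FPKM + 1) of each gene minus that of Cdh5, not the FPKM ratios above. Its SE were nearly equal among the members, from 0.689 for Robo4 to 0.744 for Plvap. Here limma drew each variance towards that of all genes, most of which do not vary together with Cdh5. These counts of 0 therefore say little about the members. Pecam1 stood higher against Esam in RI tumours. The ratio of Pecam1 to Esam, also picked after the values were seen, was 2.31, 1.62, 2.50 and 1.51 in RI 1, 2, 4 and 5, and 0.882, 1.02, 0.988 and 0.547 in ICI 1 to 4, with no overlap. That held for 14 of the 45 pairs of members (31.1%), this pair among them. Both genes are carried by other cells besides endothelium, and summed pan-leukocyte markers were at 177.6 to 304.3 FPKM in RI tumours and 214.4 to 1061 FPKM in ICI tumours. Their part in these ratios was not tested.

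**Figure D4:**
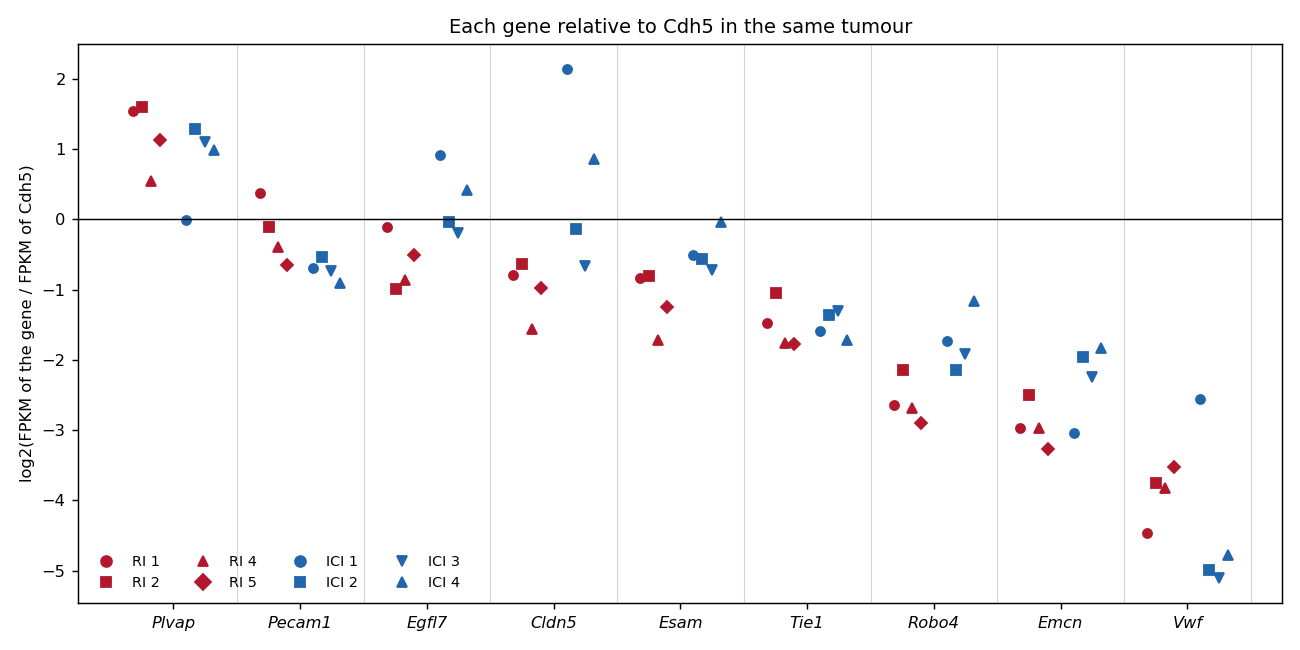
Log2 of the FPKM of each of 9 members over the FPKM of Cdh5 in the same tumour (points), RI on the left and ICI on the right of each gene, with the level of Cdh5 as the line at 0. Esam and Robo4 are lower in all RI tumours than in any ICI tumour, and the groups overlap for the other 7.

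Other genes of the vasculature were read from lists, beside 17.7% called over all genes tested (11.1% higher and 6.60% lower in RI tumours). Of 30 further endothelial genes 21 were tested, and 1 rose and 0 fell in RI tumours. The median difference was -0.60 with all tumours and -0.01 without ICI 1, and without ICI 1 and ICI 4 it was 0.20, with 15 genes higher and 6 lower in RI tumours. The gene that rose was Podxl, a sialomucin of endothelium that is also made by kidney podocytes and many epithelia, at 34.2, 33.0, 36.7 and 39.7 FPKM in RI 1, 2, 4 and 5, and at 24.3, 18.5, 20.9 and 15.03 FPKM in ICI 1 to 4. All RI tumours lay above all ICI tumours. Podxl rose by 0.85 ± 0.16 (SE), with an adjusted p of 0.0153 by limma, which was 0.0415 without ICI 1 and ICI 4 and 0.0525 without ICI 4 alone. RI 2, the highest RI tumour for all members, was its lowest RI tumour. Ramp2, the accessory protein of the adrenomedullin receptor, was likewise highest in ICI 1 and ICI 4, at 0.550 to 1.71 FPKM in RI tumours and at 49.8 FPKM in ICI 1, 5.26 in ICI 4, 0.856 in ICI 2 and 2.43 in ICI 3 (adjusted p of 0.199 by limma).

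Transcription factors of endothelium gave 1 gene that rose, Ets1, and 0 that fell among 11 tested of 20, with a median difference of -0.32, which was -0.0028 without ICI 1 and ICI 4. ETS1, which lymphocytes also use, was at 25.6 to 33.4 FPKM in the 4 RI tumours and at 13.2 to 21.9 FPKM in the 4 ICI tumours, without overlap. Its log2 difference was 0.77 ± 0.19 (SE), with an adjusted p of 0.0280 by limma, and 0.47 with an adjusted p of 0.108 without ICI 1 and ICI 4. The adjusted p was also above 0.05 when ICI 4, RI 1, RI 2 or RI 5 alone was left out (0.0573 to 0.0852 by limma). ERG, an ETS factor central to endothelial identity, did not pass, at 0.951, 1.63, 1.01 and 0.724 FPKM in RI tumours and 8.85, 1.08, 0.990 and 2.60 FPKM in ICI 1 to 4 (adjusted p of 0.271 by limma). Klf2, which flow induces in endothelium and which lymphocytes also express, stood at 6.55 to 15.3 FPKM in RI tumours and at 292.9, 16.3, 16.3 and 71.3 FPKM in ICI 1 to 4, with an adjusted p of 0.107 by limma.

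Endothelial receptors and Notch genes had most calls. Of 14 tested, 4 rose and 0 fell in RI tumours, where 11.1% of all genes rose and 6.60% fell. The median difference of the list was 0.33. The genes that rose were the ephrin receptor Ephb4, the netrin receptor Unc5b, the VEGF and semaphorin receptor Nrp2 and the semaphorin receptor Plxnd1, none of them confined to endothelium. Ephb4 was at 26.9, 23.0, 21.2 and 28.6 FPKM in RI 1, 2, 4 and 5, and at 13.0, 13.1, 12.5 and 11.7 FPKM in ICI 1 to 4. Unc5b was at 16.3, 18.2, 12.0 and 15.7 FPKM in RI tumours, and at 4.73, 7.06, 7.005 and 7.25 FPKM in ICI tumours. For all 4 of these genes every RI tumour lay above every ICI tumour, and neither ICI 1 nor RI 2 stood out in Ephb4. Differences were 0.93 ± 0.14 (SE) for Ephb4 and 1.14 ± 0.17 (SE) for Unc5b, with adjusted p of 0.0115 and 0.0125 by limma, and 1.12 and 0.65 for Nrp2 and Plxnd1, with adjusted p of 0.0361 and 0.0380. Without ICI 1, 8 of the 14 rose, and 20.0% of all genes were called in either direction. That share was 4.49% without ICI 1 and ICI 4. Without ICI 1 and ICI 4, 3 rose, and Nrp2 and Plxnd1 no longer passed (adjusted p of 0.0916 and 0.103 by limma), and these 2 were also lost in several fits without 1 library, ICI 4 among them (0.0903 and 0.0782). Ephb4 and Unc5b passed without any 1 library. With TPM, 0 genes of these 3 lists passed, and 280 of the 13439 genes tested did. TPM divides each value by the summed FPKM of its library, which was 717092 in RI 4 and 358243 to 494399 in the others. The part of this in the lost calls was not tested.

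**Figure D5:**
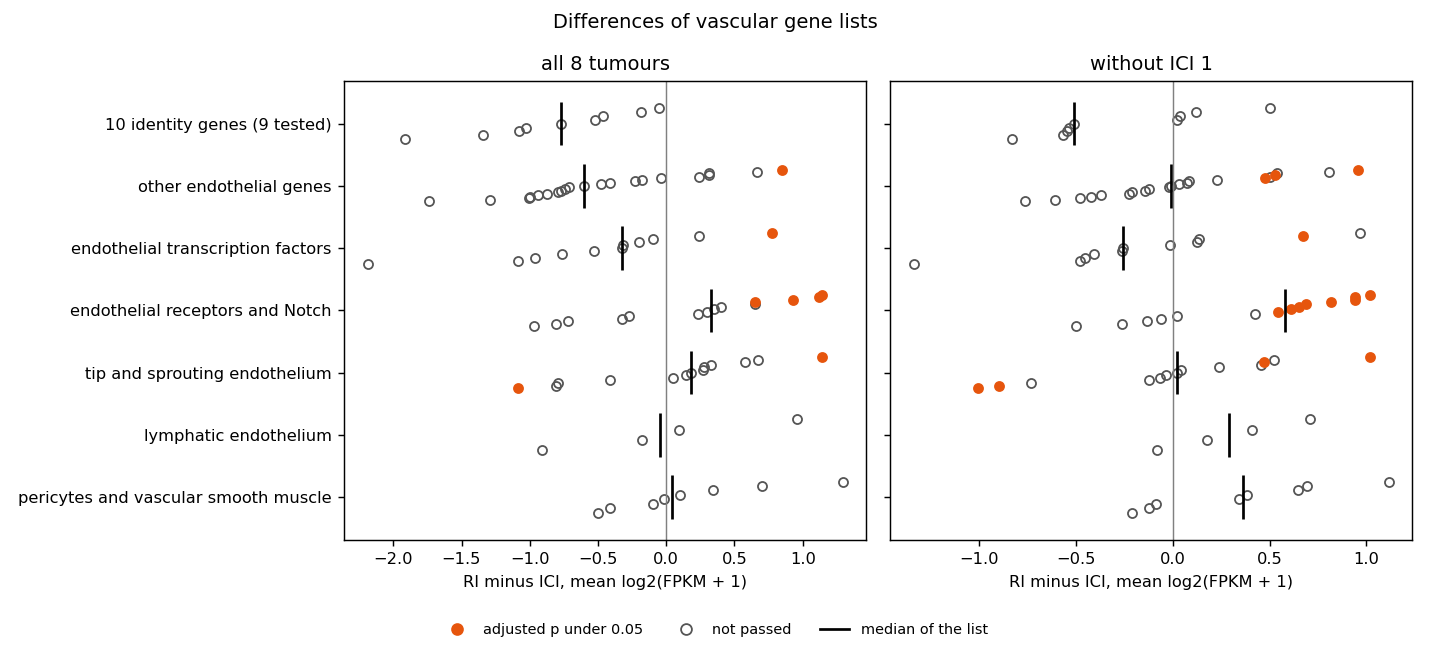
Difference RI minus ICI in mean log2(FPKM + 1) (horizontal axis) of the tested genes of 7 vascular lists (points), filled where the limma adjusted p is under 0.05, with a bar at the median of each list, for all 8 tumours on the left and without ICI 1 on the right. With all tumours the identity genes have a median of -0.77 and no filled point, and receptors and Notch genes have a median of 0.33 and 4 filled points.

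Of 13 tested genes of tip and sprouting endothelium 1 rose, Unc5b again, and 1 fell, the chemokine receptor Cxcr4, which leukocytes also carry. Cxcr4 was at 4.52 to 8.03 FPKM in RI tumours and 12.1 to 22.1 FPKM in ICI tumours, a difference of -1.08 ± 0.22 (SE) with an adjusted p of 0.0168 by limma (0.169 with TPM and 0.0475 without ICI 1 and ICI 4). The basement membrane collagens Col4a1 and Col4a2 were at 89.3 to 131.1 and 65.2 to 100.4 FPKM in RI tumours, against 43.3 to 87.9 and 46.1 to 66.3 FPKM in ICI tumours, and did not pass (adjusted p of 0.0848 and 0.0699 by limma). Lymphatic endothelium had 4 tested genes, and pericytes and vascular smooth muscle 8, of which 0 rose and 0 fell. Lyve1, a hyaluronan receptor of lymphatic endothelium and some macrophages, ranged from 0.545 to 13.4 FPKM in RI tumours and from 0.578 to 15.4 FPKM in ICI tumours, and the pericyte gene Rgs5 from 2.06 to 10.01 FPKM in RI tumours and from 0.558 to 3.70 FPKM in ICI tumours.

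Markers of other cell types differed between tumours as well. Of 4 tested platelet genes Itgb3, an integrin chain that endothelium shares, rose by 0.75 (adjusted p of 0.0168 by limma, and 0.0467 without ICI 1 and ICI 4), and summed platelet markers were at 48.7 to 103.7 FPKM in RI tumours and 34.1 to 70.2 FPKM in ICI tumours, with ICI 1 the lowest of all. Of 8 pan-leukocyte genes 1 rose (Laptm5, also without ICI 1 and ICI 4 with an adjusted p of 0.0397 by limma) and 0 fell. Yet 6 of the 8 were lower in RI tumours, with a median difference of -0.61, which was -0.08 without ICI 1. Coro1a fell without ICI 1 (adjusted p of 0.0349 by limma). Of 8 fibroblast genes 3 rose (Lum, Col1a1 and Col3a1) and 0 fell. Over all genes tested, 11.1% rose and 6.60% fell. Without ICI 4 none of Lum, Col1a1 and Col3a1 passed (adjusted p of 0.0662 to 0.0938 by limma), nor did Itgb3 (0.053). Fibroblast markers summed to 102.0 to 455.7 FPKM in RI tumours, highest in RI 2, and to 52.4 to 71.2 FPKM in ICI tumours. Skeletal muscle markers, of which Ckm and Myh4 rose among 9 tested, summed to 131.8 to 603.3 FPKM in RI tumours and to 15.8 to 303 FPKM in ICI tumours, with the lowest sums in ICI 1 and ICI 4. Without ICI 1 neither Ckm nor Myh4 passed (adjusted p of 0.0562 and 0.115 by limma). Of 3 tested adipocyte genes and 4 of tumour epithelium, 0 passed. These lists hold 9 and 8 genes. The rest failed the filter and could not be called, so the 0 covers only part of each list. In the lists of lung genes 0 of 2 tested alveolar and 0 of 2 tested airway genes passed. The lists hold 10 and 6 genes, and those high in ICI 1 and ICI 4 alone, such as Sftpc, fail the filter. They could not be called, so these counts of 0 say little about lung tissue. Of 8 tested lung capillary genes 1 rose, the ligand gene Kitl, by 0.84 (adjusted p of 0.0140 by limma). Kitl did not pass without ICI 1 and ICI 4 (0.0507), with TPM (0.238) or with no filter (0.0510). The part of these cell types in the members' values was not tested.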

How the data were processed

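Total RNA of 8 tumours had been sequenced. The deposited values are FPKM, made by the authors, in 1 table with 32098 gene rows. Alignment tool and build are HISAT2, without a version, and GRCm38 (mm10), per the submitters' processing notes. No counter or strand setting is stated in the sources used here. Groups and replicate numbers are those of the sample titles.

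Differences RI minus ICI were tested on log2(FPKM + 1) with limma 3.58.1 in R 4.3.3 (trend and robust variance, two-sided) over the 13439 genes that reached 1 FPKM in 4 or more tumours, and p-values were Benjamini-Hochberg adjusted over all of them. The pseudocount of 1 understates changes of low genes. Coordinates and lengths came from GENCODE M21. Fragments were recovered from the steps of low FPKM values, of which 98.6% to 98.8% lay within 0.05 of a whole number, and were used for depth and for voom.

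The members, 12 gene lists, and the choice of genes to be named (all members, and of each list up to 4 with the smallest p and the most abundant) were made with earlier results of these data known. Lists of alveolar, airway and lung capillary genes, the ratios, and the fits without ICI 1 and ICI 4, without these and RI 2, and relative to Cdh5 were added after the values were seen. A list is described by counts and medians, with no test.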

Additional observations from a re-analysis of the deposited data

Results flagged for a closer look

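Within a group of 4 tumours, a value was picked out where its gap to the next tumour exceeded Dixon's 95% critical value relative to the range of the group. For normally distributed values chance gives this in about 1 in 20 groups. The rule was applied to FPKM without a log, for which that rate need not hold. The members also vary together, so the values picked out are not separate events. ICI 1 was picked out for Cdh5 (45.55 FPKM), Pecam1 (28.27), Egfl7 (86.04), Cldn5 (199.8), Tie1 (15.14) and Vwf (7.738). RI 2 was picked out for Tie1 (7.632 FPKM), Robo4 (3.554) and Emcn (2.794).

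Among summed lists, ICI 1 was far above the other ICI tumours in other endothelial genes (576.1 FPKM), endothelial transcription factors (579.3), endothelial receptors and Notch genes (190.8), pan-leukocyte genes (1061), airway epithelium (5392) and lung capillary endothelium (218.2). RI 2 was far above the other RI tumours in adipocyte genes (383.6 FPKM), and RI 5 in tumour epithelium (1413 FPKM).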

How the results depend on the processing

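In the 25 alternatives run, 22 planned and 3 added, 0 members were called. The 2373 genes called in all became 241 with no filter, 280 with TPM, 4319 with array weights, 603 without ICI 1 and ICI 4, 8 without these and RI 2, and 30 relative to Cdh5. Leaving out 1 library gave 336 to 2693. The count moved most when ICI 4 (336), RI 2 (672), RI 1 (999) or RI 5 (1017) was the library left out. The 14 called genes of the 12 first lists, without the 3 lists of lung genes, became 2 with no filter, 8 with TPM, 31 with array weights, 25 without ICI 1 and RI 4, 7 without ICI 1 and ICI 4, 0 without these and RI 2, 3 relative to Cdh5, and 4 to 20 when 1 library was left out (lowest when it was ICI 4, then RI 2 with 6, RI 1 with 8 and RI 5 with 9). Genes higher and lower in RI tumours were 1486 and 887 in the fit as reported, 1774 and 1546 with upper-quartile scaling, and 1500 and 1623 with median centring. TPM set the median of all genes at 0.11 log2 units.

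With the replicate number as a block, 22 genes, 3 list genes and 0 members were called, and 3 genes and 1 list gene with the length and GC correction besides. The numbers gave no pairing, since deviations of same-numbered tumours correlated at -0.0923, -0.120 and -0.124.

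The sign of some member differences turned, and the cause was not tested. Positive values were 0.050 for Pecam1 with TPM, and, with array weights, 0.59 for Plvap, 0.26 for Cdh5, 0.81 for Pecam1 and 0.32 for Tie1. Plvap was at 0.084 with the length and GC correction and 0.065 with the block added. Without ICI 1 and RI 4 the differences were 0.44 for Plvap, 0.15 for Cdh5, 0.66 for Pecam1, 0.18 for Tie1 and 0.40 for Vwf. Without ICI 1 and ICI 4 they were 0.26 for Plvap, 0.24 for Cdh5, 0.61 for Pecam1, 0.090 for Tie1 and 0.43 for Vwf, and without RI 2 as well 0.34 for Pecam1 and 0.30 for Vwf. Relative to Cdh5 they were 0.34 for Plvap, 0.47 for Pecam1 and 0.058 for Tie1. With 1 library left out the differences ran from -0.57 to 0.14 for Plvap, -0.85 to 0.040 for Cdh5, -0.33 to 0.50 for Pecam1, -0.81 to 0.022 for Tie1 and -0.60 to 0.35 for Vwf.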
